A study of Mus musculus with 21 samples.

Results

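Transcripts of 10 genes of the muscle basement membrane and its cell-surface receptors were measured in the gastrocnemius of mice that trained, stopped training or never trained. They were 6 laminin chains (Lama2, Lama4, Lama5, Lamb1, Lamb2 and Lamc1), the linker nidogen-1 (Nid1) and 3 integrin subunits (Itga6, Itga7 and Itgb1), picked by gene symbol from a table of 40853 genes with results for these same libraries already known. All 10 were found in the table, and all 10 were among the 16129 genes that passed the filter on low counts. The values below therefore describe the members, and adjusted p-values are given as a description of the fit and not as independent evidence.

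The medial belly of the gastrocnemius was taken from 21 female C57BL/6NJ mice, 10 weeks old at the start, with 1 poly(A) RNA library per mouse. The 7 Active mice ran on a treadmill for 6 weeks, 5 days a week, in sessions of up to 40 min with part of each at about 70% of maximal speed. The 7 Activity Reduction mice followed that schedule for 4 weeks and were then left untrained for 2 weeks, and the 7 Inactive mice stayed sedentary. Mice of all 3 groups ran a maximal test last, and muscle was taken 48 to 72 h later, after a fast of several hours. Counts per library ranged from 38482455 to 59785132, and group medians were 53278181 (Inactive), 46532461 (Active) and 49829192 (Activity Reduction). The deepest Active library was shallower than the shallowest Inactive one, and levels below are therefore normalized counts, the raw counts divided by DESeq2's size factors.

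A basement membrane is a thin matrix sheet that coats each muscle fibre and each capillary. Laminins are its cell-binding scaffold, and each is a trimer of an alpha, a beta and a gamma chain. The alpha2 chain (Lama2) is the chain of the adult fibre surface, whose loss causes a congenital muscular dystrophy, whereas alpha4 and alpha5 (Lama4 and Lama5) are the chains of vessel walls. Nidogen joins the laminin network to the collagen IV network. On the cell side, integrin alpha7beta1 (Itga7 and Itgb1) is the main laminin-binding integrin of the fibre, integrin alpha6 (Itga6) is the laminin-binding partner of beta1 on endothelial and satellite cells, and dystroglycan is a separate laminin receptor linked to dystrophin.

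The labelled tissue held its defining transcripts. All 14 fibre markers examined passed the filter, and Myh4, the fast myosin heavy chain of type IIb fibres, was the most abundant of them at a mean of 4002900 normalized counts. Libraries also differed in transcripts of 24 liver genes, all of them detected and Alb the most abundant. Their sum ranged from 789 to 2408 CPM (counts scaled to a common library total) in 8 libraries and from 168 to 364 CPM in the other 13. The 8 were the mice with the lowest numbers in the labels, and they were 5 Active, 2 Activity Reduction and 1 Inactive. Some values that may rest on this division are given again in the 13 libraries, which hold 6 Inactive, 2 Active and 5 Activity Reduction mice. Levels of Lamb2, Itgb1 and the other pathway genes are given for all 21 libraries only.

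Between genes, levels were compared per kb of the canonical transcript, as the mean of the 21 libraries ± SD. The beta1 integrin subunit Itgb1 had the highest level, 1651 ± 59.2 normalized counts per kb, followed by the laminin beta2 chain Lamb2 at 1521 ± 69.5 and Itga7 at 1125 ± 69.5. These 3 stood well above the other 7. Lamc1, the gamma1 chain shared by most laminins, was at 428 ± 37.7, Nid1 at 308.1 ± 66.3, Itga6 at 222 ± 26.8 and Lama5 at 190 ± 10.5 normalized counts per kb. The lowest were Lama2 at 132 ± 13.1, Lamb1 at 122 ± 20.6 and Lama4 at 114 ± 22.6 normalized counts per kb. The ranges over libraries of neighbours in this order overlapped, except between Lamb2 and Itga7 and between Itga7 and Lamc1. Lama2 was above Lamb1 in 14 of 21 libraries and Lamb1 above Lama4 in 13 of 21, so neighbours among these 3 were not separable from the spread. With all annotated exon sequence of a gene as its length, Lamb2 and Itgb1 exchanged places, as did Itga6 and Lama5.

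**Figure D1:**
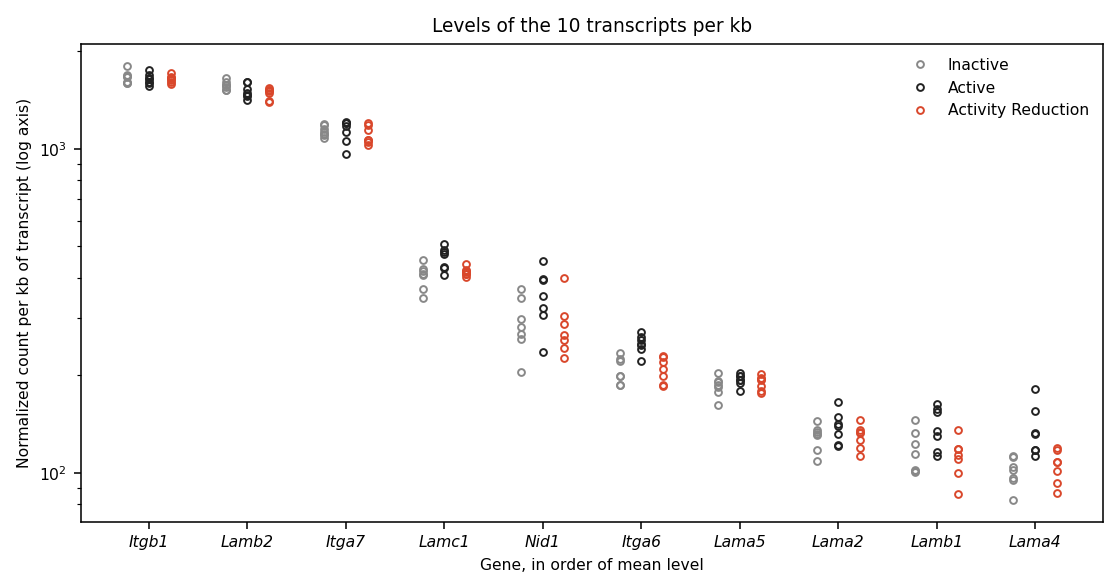
Level of each of the 10 transcripts per kb of its canonical transcript, as normalized counts on a log axis, in order of the mean. Each circle is 1 library, with 7 per group; Itgb1, Lamb2 and Itga7 lie near or above 1000 and the other 7 lie below 510.

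Lama4 (ENSMUSG00000019846, chr10:38841141-38998403, plus strand, GRCm39), the laminin alpha chain of vessels, had the largest difference between groups of the 10. Its normalized counts were 498 at the lowest, 618 at the median and 682 at the highest in Inactive mice. In the Active group they were 680, 798 and 1093.5, and in the Activity Reduction group 524, 651 and 722. Of the 7 Active libraries, 6 were above the highest Inactive library, and 5 of the 7 Activity Reduction libraries were below the lowest Active one, so the groups overlapped by few libraries. Means ± SD were 609 ± 63.7, 819 ± 149 and 634 ± 73.1 (n = 7 each). The log2 fold change was 0.44 (SE 0.10) in Active against Inactive mice and -0.37 (SE 0.10) in Activity Reduction against Active mice, estimated changes of 35.3% and -22.8%. With edgeR's quasi-likelihood test and Benjamini-Hochberg adjustment over all genes tested, neither difference passed (adjusted p = 0.159 and 0.130). DESeq2 on the 3 groups called both, with adjusted p = 0.0128 and 0.0293, and called neither once the liver division was a covariate (adjusted p = 0.323 and 0.261), when its log2 fold changes were 0.34 (SE 0.11) and -0.30 (SE 0.10). In the 13 libraries with fewer liver transcripts, the 2 Active mice had 798 and 710 normalized counts, against 498 to 682 in 6 Inactive and 524 to 722 in 5 Activity Reduction mice. Between Activity Reduction and Inactive mice the log2 difference was 0.06 (SE 0.10).

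Itga6 (ENSMUSG00000027111, chr2:71575960-71689757, plus strand, GRCm39), a laminin receptor subunit, had a pattern much like that of Lama4. Its normalized counts were 823 at the lowest, 879.7 at the median and 1033 at the highest in the Inactive group. They were 978, 1105 and 1204 in the Active group and 817, 923 and 1010.0 in the Activity Reduction group. Again 6 of 7 Active libraries were above the highest Inactive one, and 5 of 7 Activity Reduction libraries were below the lowest Active one. Means ± SD were 916 ± 84.2, 1106 ± 72.6 and 917 ± 81.1 (n = 7 each). The log2 fold change was 0.28 (SE 0.06) in Active against Inactive mice, an estimated 21.3%, and -0.27 (SE 0.06) in Activity Reduction against Active mice, an estimated -17.1%. The edgeR test passed neither (adjusted p = 0.159 and 0.107), and DESeq2 on the 3 groups called both (adjusted p = 0.0188 and 0.0145) but neither with the liver covariate (adjusted p = 0.300 and 0.114), when its log2 fold changes were 0.24 (SE 0.08) and -0.25 (SE 0.07). In the 13 libraries with fewer liver transcripts, the 2 Active mice had 1204 and 1136 normalized counts. Both were above the 6 Inactive mice, at 823 to 1033, and above the 5 Activity Reduction mice, at 817 to 969. The Active group is common to both comparisons, so a high Active level enters the 2 differences together.

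Since Lama4 and Itga6 were the 2 members that DESeq2 called, the 250 bases before the start of the canonical transcript of each are shown, read 5′ to 3′ on the plus strand of GRCm39, at chr10:38841261-38841510 and chr2:71616969-71617218. Capitals mark the GC box (GGGCGG), the CCAAT box (CCAAT) and the TATA box (TATAAA), searched on both strands.
Lama4: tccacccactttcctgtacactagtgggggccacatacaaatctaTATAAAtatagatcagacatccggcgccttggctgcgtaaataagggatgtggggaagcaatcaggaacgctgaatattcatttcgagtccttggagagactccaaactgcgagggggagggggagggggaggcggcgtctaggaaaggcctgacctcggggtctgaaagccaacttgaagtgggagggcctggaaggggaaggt
Itga6: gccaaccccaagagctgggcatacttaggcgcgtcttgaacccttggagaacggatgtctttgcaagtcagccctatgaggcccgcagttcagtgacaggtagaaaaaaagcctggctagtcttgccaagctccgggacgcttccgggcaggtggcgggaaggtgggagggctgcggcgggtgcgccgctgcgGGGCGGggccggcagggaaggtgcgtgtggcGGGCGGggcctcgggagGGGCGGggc
The Lama4 window held 1 TATA box and 0 GC boxes and was 54.0% G and C, whereas the Itga6 window held 3 GC boxes and 0 TATA boxes and was 67.6% G and C. Of 21757 windows of the same length and position, 11.9% held a TATA box, 36.3% a GC box and 36.5% a CCAAT box, and the median window was 53.2% G and C. Of the other motifs searched, CCACCC was found once before Lama4 and CANNTG (the E-box) once before Itga6, neither overlapping a marked motif, and these letters occur in 28.6% and 64.8% of all windows. The AP-1 letters TGANTCA were in 6.18% of windows and in none of the 10 members' windows. Other annotated transcripts of both genes start further upstream. A match is a description of the letters only.

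The other laminin alpha chains differed little between groups. Lama2 (chr10:26856032-27495754, minus strand), the fibre chain, ranged from 1053 to 1399 normalized counts in the Inactive, from 1173 to 1600.0 in the Active and from 1095 to 1414.5 in the Activity Reduction group, with medians of 1279.5, 1353 and 1289. The 3 ranges overlapped over most of their width. The log2 fold change of Active against Inactive was 0.11 (SE 0.07), and in the 13 libraries with fewer liver transcripts it was -0.07, with 1178 normalized counts in Active and 1242 in Inactive mice on average. Lama5 (chr2:179818166-179867712, minus strand), the broadly expressed epithelial and vessel chain, ranged from 1856 to 2320.0 in the Inactive, from 2041 to 2333 in the Active and from 2026 to 2314 in the Activity Reduction group. The 3 ranges overlapped, and the log2 fold change of Active against Inactive was 0.07 (SE 0.04). With fewer liver transcripts (the 13 libraries) it was 0.15 (SE 0.07), and that of Activity Reduction against Active was -0.09 (SE 0.07).

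Of the beta chains, Lamb1 had larger log2 fold changes than Lamb2, the more abundant one, in both comparisons with the Active group. Lamb1 (chr12:31315030-31379658, plus strand), the laminin beta1 chain, had 582, 664 and 846 normalized counts at the lowest, median and highest in Inactive mice. In the Active group it had 656, 781 and 943, and in the Activity Reduction group 499, 658 and 787. The groups overlapped widely, with 3 of 7 Active libraries above the highest Inactive one, and in the 13 libraries with fewer liver transcripts the means were 713 in Active and 681 in Inactive mice. The log2 fold change was 0.25 (SE 0.11) in Active against Inactive mice and -0.31 (SE 0.11) in Activity Reduction against Active mice (edgeR adjusted p = 0.416 and 0.209), and 0.07 (SE 0.16) and -0.11 (SE 0.16) in those 13 libraries. Lamb2 (chr9:108356935-108367729, plus strand), a chain concentrated at the neuromuscular synapse and present along the adult fibre, ranged from 8547 to 9302 in the Inactive, from 7971 to 9082 in the Active and from 7839 to 8672 normalized counts in the Activity Reduction group. It was the only member with an unadjusted p-value under 0.05 in Activity Reduction against Inactive mice, at a log2 fold change of -0.08 (SE 0.03, edgeR adjusted p = 0.593). Of the 7 Activity Reduction libraries, 5 were below the lowest Inactive one.

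Lamc1 and Nid1, which bind each other in the assembled sheet, were both higher on average in the Active group. Lamc1 (chr1:153094597-153208774, minus strand) had 2753, 3263 and 3609.6 normalized counts at the lowest, median and highest in the Inactive group, 3233, 3768 and 4040.2 in the Active group and 3199, 3314 and 3496 in the Activity Reduction group. Of the Active libraries, 4 of 7 were above every Inactive one, and the Activity Reduction libraries were close together, with an SD of 93.2 around 3318. The log2 fold change was 0.19 (SE 0.05) for Active against Inactive and -0.14 (SE 0.05) for Activity Reduction against Active mice (edgeR adjusted p = 0.234 and 0.270). Nid1 (chr13:13612071-13686860, plus strand) was the most variable member within groups, with 1250.0 to 2253 normalized counts in the Inactive, 1441 to 2753 in the Active and 1376 to 2431 in the Activity Reduction group. Its SD was 19.1%, 20.2% and 20.3% of the group mean, and its log2 fold changes of 0.28 (SE 0.14) and -0.32 (SE 0.14) were about 2 standard errors from 0 (edgeR adjusted p = 0.465 and 0.336). Both genes differed less in the 13 libraries with fewer liver transcripts. Nid1 then had log2 fold changes of 0.19 (SE 0.19) for Active against Inactive and -0.14 (SE 0.19) for Activity Reduction against Active mice, and Lamc1 of 0.14 (SE 0.09) and -0.08 (SE 0.09).

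The fibre integrin subunits differed little between groups over the 21 libraries. Itga7 (chr10:128769621-128794169, plus strand) ranged from 4426 to 4896 normalized counts in the Inactive, from 3937 to 4973 in the Active and from 4218 to 4912 in the Activity Reduction group. Itgb1 (chr8:129411876-129460618, plus strand) ranged from 7988 to 9056 in the Inactive, from 7861 to 8797 in the Active and from 7969.5 to 8571 in the Activity Reduction group. Both had ranges that overlapped between all 3 groups. The log2 fold changes of Active against Inactive were 0.003 (SE 0.05) for Itga7 and -0.009 (SE 0.03) for Itgb1, and that of Itga7 was -0.04 (SE 0.05) in Activity Reduction against Active mice. In the 13 libraries, Itga7 had log2 fold changes of 0.08 (SE 0.06) and -0.15 (SE 0.06) in the 2 comparisons (edgeR adjusted p = 0.881 and 0.981).

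**Figure D2:**
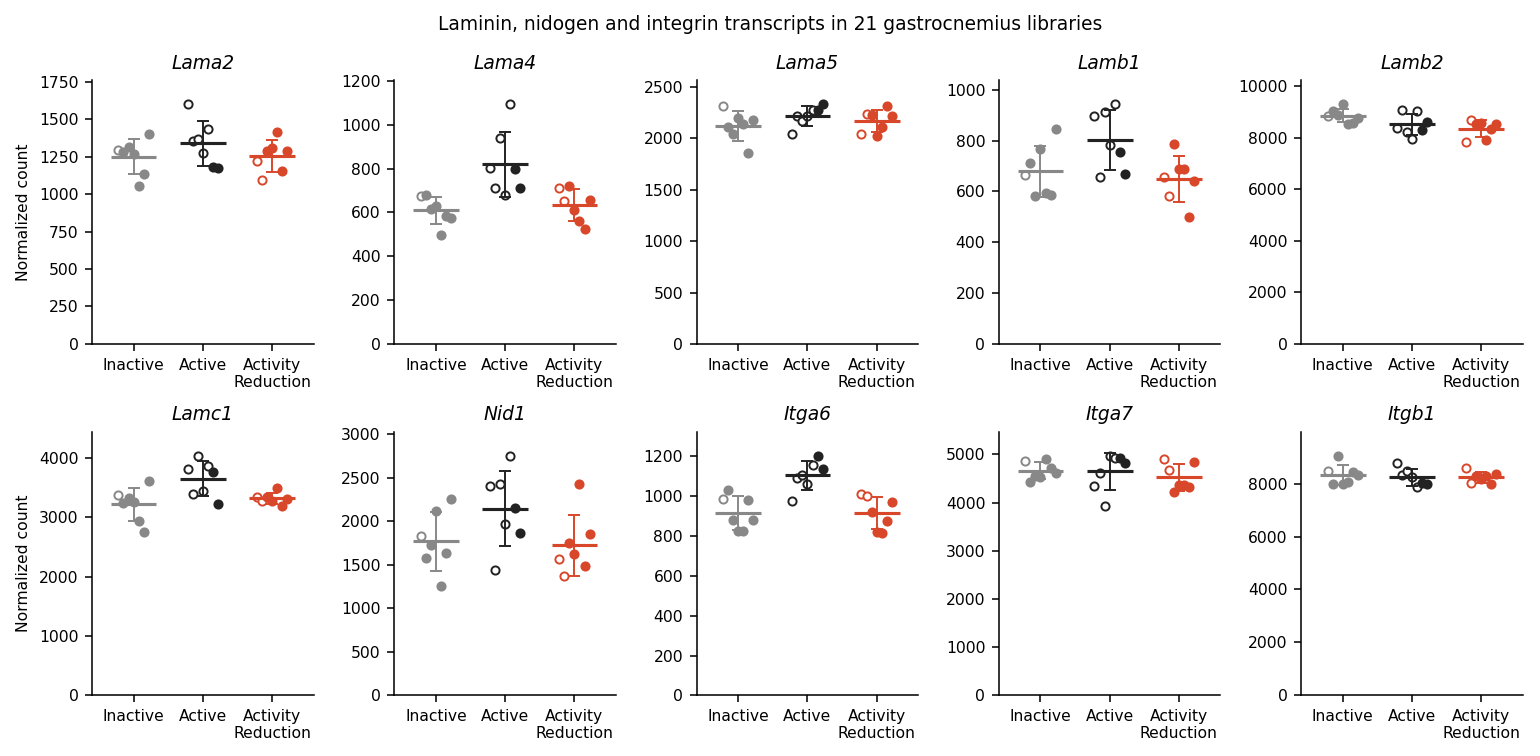
Normalized counts of each transcript in each library, with the mean and SD of each group of 7; open circles are the 8 libraries with more liver transcripts and filled circles the other 13. For Lama4 and Itga6 the Active libraries lie mostly above both other groups, while Itga7, Itgb1 and Lama5 overlap throughout.

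Because each laminin takes a single alpha chain, the makeup of the alpha transcripts was also described, per kb of canonical transcript. The size of each share depends on that length. Mean levels per kb were 190 for Lama5, 132 for Lama2 and 114 for Lama4. With all annotated exon sequence as the length they were 190, 71.9 and 43.7, and shares were not computed on that length. Lama5 made up the largest share, 44.7% ± 2.30 in the Inactive, 41.6% ± 3.51 in the Active and 44.7% ± 2.61 in the Activity Reduction group (mean ± SD, n = 7 each). Lama4 made up 24.3% ± 1.70, 28.8% ± 3.22 and 24.7% ± 2.41, and Lama2 made up 31.1% ± 1.63, 29.6% ± 2.65 and 30.6% ± 2.40. In the 13 libraries with fewer liver transcripts, the mean shares in the Inactive, Active and Activity Reduction groups were 44.6%, 45.0% and 44.8% for Lama5, 24.1%, 27.8% and 23.8% for Lama4, and 31.3%, 27.2% and 31.4% for Lama2. The Lama4 share was highest in the Active group in both sets of libraries, whereas Lama5 had its lowest mean share there in the 21 libraries and not in the 13. Lamb1 made up 6.92% ± 0.891 of the beta transcripts in the Inactive, 8.39% ± 1.21 in the Active and 7.03% ± 0.965 in the Activity Reduction group, and 6.94%, 7.59% and 7.11% in the 13 libraries. Itga6 made up 15.4% ± 1.37, 18.1% ± 1.27 and 15.8% ± 0.785 of the Itga6 and Itga7 transcripts. In the 13 libraries with fewer liver transcripts, the Itga6 share was 15.4% in Inactive, 18.2% in Active and 15.6% in Activity Reduction mice. Summed per kb over the 3 chains, alpha transcripts came to 415 ± 27.6 in the Inactive, 468 ± 31.9 in the Active and 424 ± 13.4 in the Activity Reduction group. The gamma1 transcript came to 405 ± 35.9, 460.4 ± 37.3 and 418 ± 11.7, close to the alpha sum in each group, while the beta sum was 1689 ± 57.4, 1649.7 ± 74.0 and 1593 ± 60.0.

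**Figure D3:**
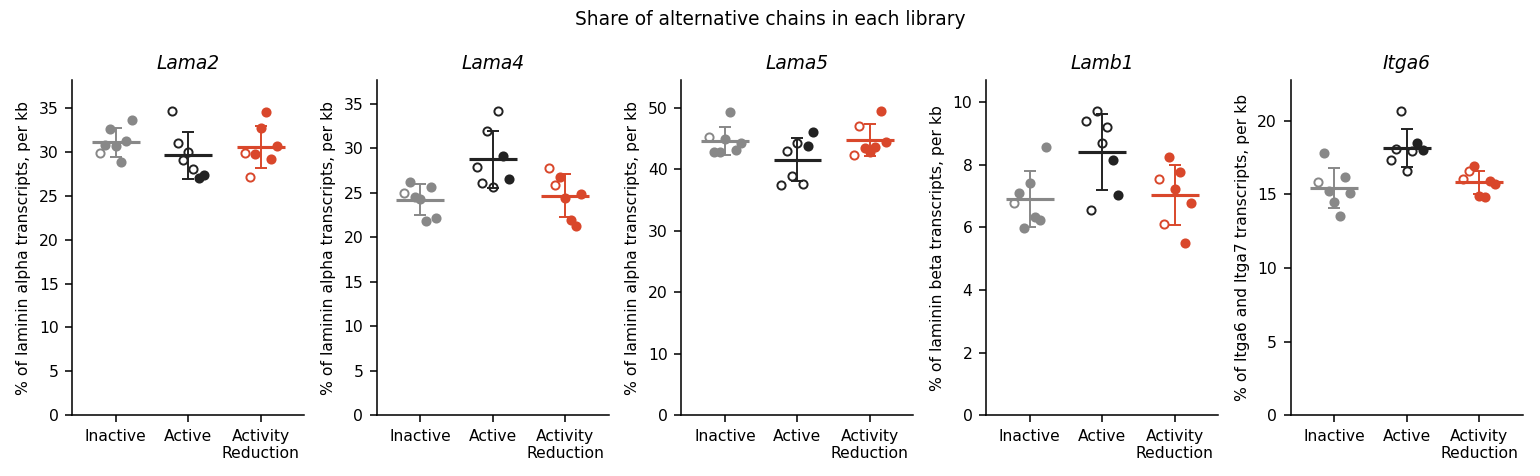
Share of a transcript in its chain type in each library, per kb: Lama2, Lama4 and Lama5 of the 3 alpha chains, Lamb1 of the 2 beta chains, and Itga6 of Itga6 and Itga7, with the mean and SD of each group of 7. Open circles are the 8 libraries with more liver transcripts; the Lama4 share is between 21.8% and 26.3% in the Inactive group and between 25.7% and 34.2% in the Active group.

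Counted over the members, 0 of 10 passed the thresholds used here (adjusted p under 0.05 and a log2 fold change over 0.25 in either direction) in any of the 3 comparisons with edgeR, where 0%, 0.0124% and 0% of all genes tested passed in Active against Inactive, Activity Reduction against Inactive and Activity Reduction against Active mice. At an unadjusted p-value under 0.05, 4 of 10 were higher in Active than Inactive mice (Lama4, Itga6, Lamc1 and Lamb1) and 0 were lower, where 6.18% of all genes were higher and 4.69% lower. In Activity Reduction against Active mice, 5 of 10 were lower (those 4 and Nid1), where 6.44% of all genes were lower. In Activity Reduction against Inactive mice, 1 of 10 was lower and 0 were higher, where 3.54% of all genes were lower and 4.19% higher. DESeq2 on the 3 groups called Lama4 and Itga6 higher in Active than Inactive mice and lower in Activity Reduction than Active mice, where 0.375% and 0.626% of the genes with an adjusted p-value were called in those directions and 0.15% and 0.19% in the opposite ones. It called 0 members in Activity Reduction against Inactive mice, where it called 0.511% higher and 0.275% lower. For 0 of 10 members did the 7 libraries of any 2 groups separate without overlap, where 0.254%, 0.118% and 0.291% of all genes did in the 3 comparisons. The median log2 fold change of the 10 members was 0.15 in Active against Inactive mice, -0.002 in Activity Reduction against Inactive mice and -0.12 in Activity Reduction against Active mice, beside 0.005, 0.006 and -0.0006 over all genes tested. The log2 fold change was above 0 for 8, 5 and 0 of 10 members in the 3 comparisons, where it was above 0 for 51.6%, 52.2% and 49.8% of all genes. The comparisons with the Active group share its 7 libraries. The members were chosen from these same contrasts, so nothing is read from these counts.

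**Figure D4:**
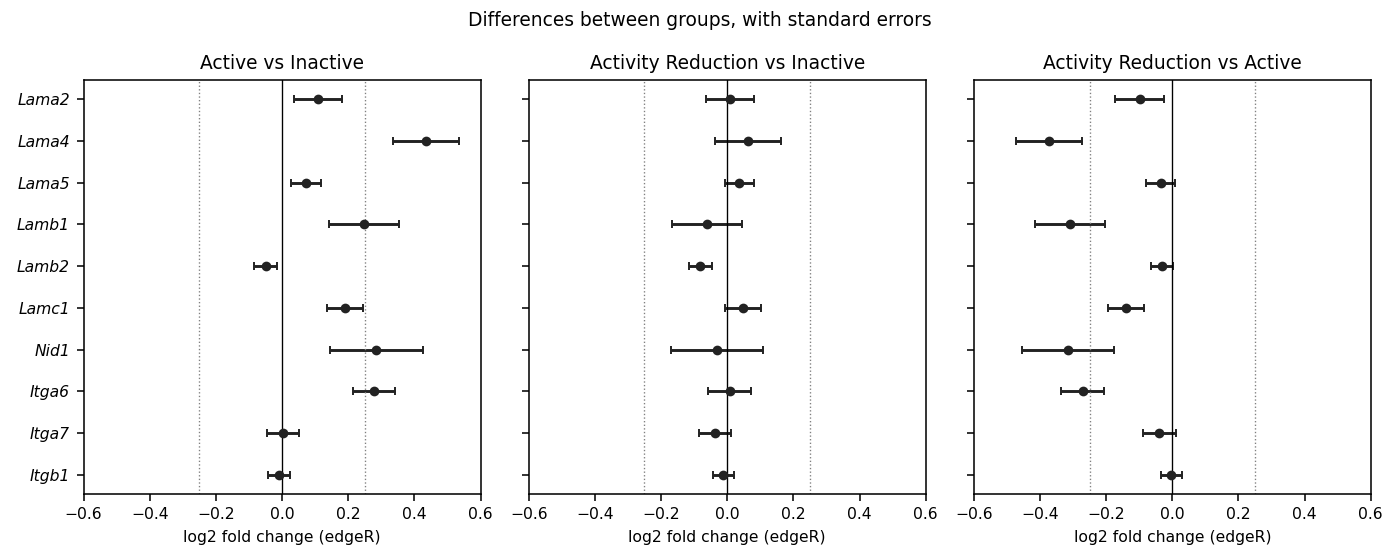
Log2 fold change (edgeR) of the 10 transcripts in each of the 3 comparisons, on the horizontal axis, with bars of 1 standard error on either side; dotted lines mark the fold threshold of 0.25. Lama4 lies furthest from 0, at 0.44 in Active against Inactive and -0.37 in Activity Reduction against Active mice, and all 10 lie close to 0 in Activity Reduction against Inactive mice.

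Other genes of the same pathways were taken from 6 lists of 86 genes, of which 83 were tested (Lama1, Large2 and Fermt1 were below the filter). With edgeR, 0 of 83 passed in each of the 3 comparisons. At an unadjusted p-value under 0.05, 10 were higher and 2 lower in Active against Inactive mice, where 6.18% of all genes were higher and 4.69% lower. In Activity Reduction against Inactive mice, 5 were higher and 4 lower (all genes: 4.19% and 3.54%). In Activity Reduction against Active mice, 7 were higher and 12 lower (all genes: 6.89% and 6.44%). The remaining laminin chains were scarce. Lama3, a chain of epithelial laminins, had the most normalized counts (mean 69.6), and Lamb3 the highest level per kb (10.15). Of the 4 tested, 0 had an unadjusted p-value under 0.05 in any comparison.

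Among 19 other matrix genes of the sheet, 3 were higher in Active than Inactive mice at an unadjusted p-value under 0.05, where 6.18% of all genes were. At the same threshold 6 were lower in Activity Reduction than Active mice, where 6.44% of all genes were. Hspg2, which encodes perlecan, had the most normalized counts, 6739 ± 510.5 in the Inactive, 7518 ± 504 in the Active and 7152 ± 551 in the Activity Reduction group. Per kb of canonical transcript it was at 492, below Sparc at 2150 and Smoc2 at 1289. Nid2, the paralog of Nid1, averaged 290.3 ± 55.5, 356 ± 61.5 and 267 ± 29.1, and its log2 fold change in Activity Reduction against Active mice was -0.42 (SE 0.12, edgeR adjusted p = 0.151). Fbln1, a fibulin that binds laminin and nidogen, averaged 124 ± 36.0, 145 ± 28.2 and 86.3 ± 29.3, with a log2 fold change of -0.75 (SE 0.21, edgeR adjusted p = 0.150) in that comparison. DESeq2 on the 3 groups called Nid2 and Fbln1 lower there (adjusted p = 0.0444 and 0.0328), and neither once the liver division was a covariate. Col18a1, the source of endostatin, varied widely, from 275 to 1021 in the Inactive and from 341 to 1129 in the Active group, with means of 444 and 748 and a log2 fold change of 0.76 (SE 0.33, edgeR adjusted p = 0.416). The collagen IV chains Col4a1 and Col4a2, the other network of the sheet, averaged 2874 ± 460.2 and 3051 ± 404 in the Inactive and 3098 ± 471 and 3159 ± 434 in the Active group, within 1 SD of each other. They were lowest in the Activity Reduction group, at 2718 ± 223 and 2915 ± 260. Log2 fold changes there against Active mice were -0.19 (SE 0.10) and -0.12 (SE 0.09), with edgeR adjusted p = 0.419 and 0.585.

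Among 15 other integrin subunits, 3 were higher and 0 lower in Active than Inactive mice at an unadjusted p-value under 0.05, where 6.18% of all genes were higher. The 3 were the collagen receptors Itga1 and Itga11 and the fibronectin receptor Itga5, with log2 fold changes of 0.27 (SE 0.10), 0.41 (SE 0.15) and 0.32 (SE 0.11). Itga11 averaged 123 ± 32.0 normalized counts in the Inactive, 161 ± 33.2 in the Active and 97.2 ± 15.8 in the Activity Reduction group. Its lowest Active library (118.4) was just above the highest Activity Reduction library (117.6), where 0.291% of all genes tested had groups without overlap. Its log2 fold change in Activity Reduction against Active mice was -0.73 (SE 0.16, edgeR adjusted p = 0.0855, DESeq2 adjusted p = 0.00411). Itga2, another collagen receptor subunit, was scarce, at 20.2 ± 10.3, 29.4 ± 8.17 and 17.3 ± 6.61, with a log2 fold change of -0.76 (SE 0.30, edgeR adjusted p = 0.285) in that comparison. At an unadjusted p-value under 0.05, 1 of the 15 was higher and 2 were lower in Activity Reduction than Active mice (all genes: 6.89% and 6.44%). In Activity Reduction than Inactive mice 1 was lower (all genes: 3.54%). Itgb5, a beta subunit that pairs with alphav, was the most abundant, at 3627 ± 197, 3493 ± 324 and 3838 ± 326.

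Genes of the dystroglycan complex, the other laminin receptor of the fibre, were listed together with Bcam, a separate laminin receptor, and differed from each other in direction. Dag1 averaged 13201 ± 709.8 normalized counts in the Inactive, 12919 ± 471 in the Active and 13827 ± 1234 in the Activity Reduction group. Of the 14 genes of that list, 1 was higher in Active than Inactive mice at an unadjusted p-value under 0.05, where 6.18% of all genes were. At that threshold 3 were higher in Activity Reduction than Inactive mice, where 4.19% of all genes were. In Activity Reduction against Active mice 3 were higher and 1 was lower (all genes: 6.89% and 6.44%). The log2 fold change there was above 0 for 9 and below 0 for 5 of the 14. Dmd, encoding dystrophin, averaged 6793 ± 442, 6675 ± 291 and 7472 ± 524, and Dtna, encoding dystrobrevin alpha, 5351 ± 148, 5339 ± 302 and 5825 ± 552. Utrn, encoding the dystrophin paralog utrophin, was the 1 lower gene, at 1352 ± 75.6, 1455 ± 101 and 1312 ± 111, with a log2 fold change of -0.15 (SE 0.05, edgeR adjusted p = 0.233) in Activity Reduction against Active mice. Among 12 tested genes for dystroglycan glycosylation, which makes it bind laminin, B3galnt2 was the most abundant and averaged 8492 ± 645, 7358 ± 623 and 7146 ± 756, with a log2 fold change of -0.24 (SE 0.07, edgeR adjusted p = 0.320) in Activity Reduction against Inactive mice. Of 19 tested integrin partners and linkers to actin, Tln1, the talin that activates integrins, averaged 5123 ± 219, 5461 ± 146 and 5383 ± 259.8, and Cd151, a tetraspanin that binds laminin-binding integrins, 3139 ± 133, 2809.5 ± 241 and 3285 ± 301. Cd151 had a log2 fold change of 0.22 (SE 0.06) in Activity Reduction against Active mice (edgeR adjusted p = 0.118). At an unadjusted p-value under 0.05 in that comparison, 2 glycosylation genes were higher and 0 lower, and 1 linker gene was higher and 3 were lower. The shares of all genes there were 6.89% and 6.44%.

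In bulk muscle, fewer cells of a type and less RNA per cell cannot be told apart, and levels of cell type markers moved with some members. The 10 fibroblast and fibro-adipogenic markers, all detected and Dcn the most abundant (mean 5279.8), summed to 9500.2, 15943 and 17154 normalized counts at the lowest, median and highest in the Inactive group. They summed to 15544, 17280.0 and 23643 in the Active and 11978, 13390.0 and 15933 in the Activity Reduction group. Mean sums were closer in the 13 libraries with fewer liver transcripts, at 15210.0 in Inactive, 16070.0 in Active and 14088 in Activity Reduction mice. Over all 21 libraries, all 10 were lower on average in Activity Reduction than Active mice. Of these, 9 were so at an unadjusted p-value under 0.05, where 6.44% of all genes were. In Active against Inactive mice, 10 of 10 had a log2 fold change above 0, where 51.6% of all genes did. The 10 endothelial markers, all detected and Ptprb the most abundant (mean 3682), summed to 15883 ± 1023 in the Inactive, 17208 ± 1056 in the Active and 15563 ± 591 in the Activity Reduction group. The sums of 10 pericyte and smooth muscle markers were 34590 ± 1693, 35501 ± 2630 and 34735 ± 1898, with Abcc9 the most abundant, and those of 10 macrophage markers 1471 ± 299.9, 1895 ± 284 and 1391 ± 393, with Mrc1 the most abundant. In the 13 libraries, mean sums were 15908, 16869 and 15591 for endothelial markers. They were 34580, 35181 and 34989 for pericyte and smooth muscle markers, and 1451, 1913 and 1484 for macrophage markers. The 7 tendon markers, all detected and Fmod the most abundant (mean 897.8), summed to 2021 ± 1277, 2505.5 ± 1345.5 and 1699 ± 419, and in the 13 libraries to 2155, 1794 and 1850.5 on average. Their median log2 fold change in Activity Reduction against Active mice was -0.79, with 6 of 7 below 0, and at an unadjusted p-value under 0.05 there 0 were lower and 1 was higher. The part of these levels in the differences of Lama4, Itga6 and the other members was not tested.

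Over the 21 libraries, the level of Nid1 followed that of the fibroblast list most closely among the members. Pearson's r was 0.824 and Spearman's rho 0.788 between log2 Nid1 and the mean log2 of the list, r was 0.786 after group means were subtracted and 0.775 without the 2 libraries furthest from the list's median. Lama2 had an r of 0.694 with the fibroblast list (rho 0.50, within groups 0.687, without the 2 libraries 0.632), and Lamb1 an r of 0.709 (rho 0.543, within groups 0.551, without the 2 libraries 0.656). Lama4 followed the fibroblast, endothelial and pericyte and smooth muscle lists. With the fibroblast list its r was 0.70 (rho 0.522, within groups 0.513, without the 2 libraries 0.532), and with the pericyte and smooth muscle list 0.623 (rho 0.403, within groups 0.635, without the 2 libraries 0.339). For the endothelial list, Lama4 had an r of 0.666 (rho 0.731, within groups 0.538, without the 2 libraries 0.674) and Itga6 an r of 0.671 (rho 0.697, within groups 0.508, without the 2 libraries 0.663). With the fibroblast list Itga6 had an r of 0.475 (rho 0.442, within groups 0.005, without the 2 libraries 0.311) and Lamc1 an r of 0.673 (rho 0.552, within groups 0.547, without the 2 libraries 0.469). Pearson's r lay between -0.244 and 0.298 for Lama5, Lamb2, Itga7 and Itgb1 with the fibroblast and endothelial lists. Lama5 had an r of 0.45 with the pericyte and smooth muscle list (rho 0.327, within groups 0.391, without the 2 libraries 0.142). With the macrophage list its r was 0.491 (rho 0.387, within groups 0.428, without the 2 libraries 0.347). Values for Lamb2, Itga7 and Itgb1 with those lists lay between -0.265 and 0.146. These correlations describe libraries that share groups and the liver division and carry no test.

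**Figure D5:**
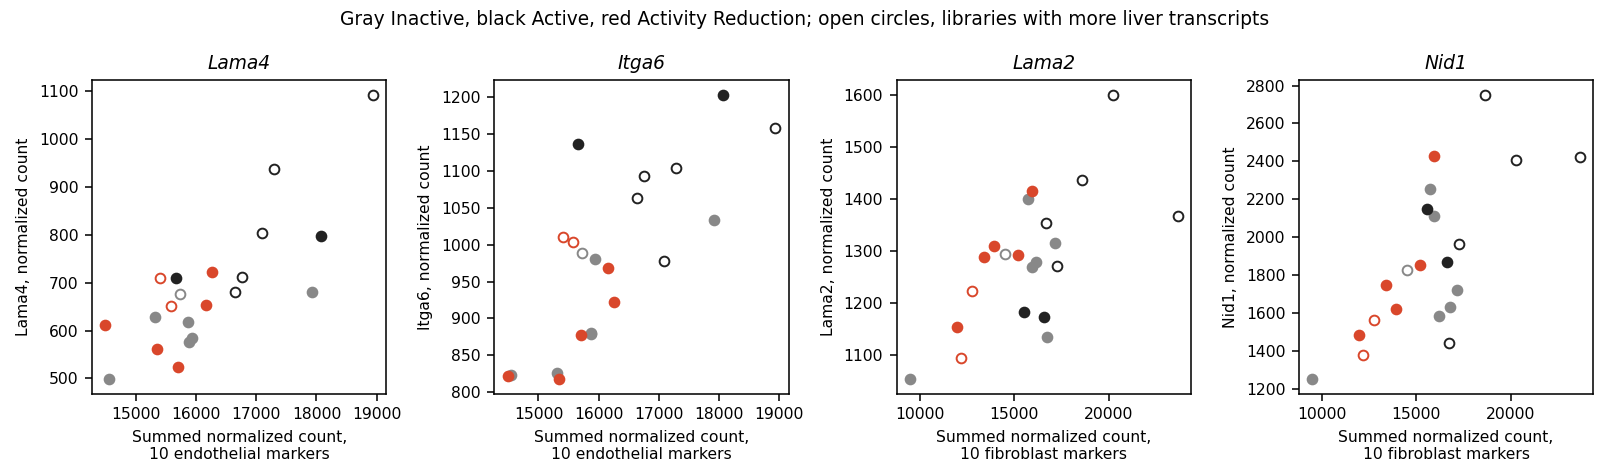
Normalized count of Lama4 and Itga6 against the summed normalized count of 10 endothelial markers, and of Lama2 and Nid1 against that of 10 fibroblast markers, with 1 point per library; gray is Inactive, black Active and red Activity Reduction, and open circles are the 8 libraries with more liver transcripts. The Active libraries lie toward the upper right in the Lama4 and Itga6 panels, and the Nid1 points follow the fibroblast sum across all 3 groups.

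Between members, Pearson's r exceeded 0.7 in 8 of 45 pairs over the 21 libraries, and the median was 0.122. Within groups it exceeded 0.7 in 3 pairs, with a median of 0.086. The closest were Lamb1 with Nid1 (r = 0.799, rho 0.762, 0.737 within groups) and Lamb1 with Lamc1 (r = 0.768, rho 0.710, 0.703 within groups), and r with the 2 extreme libraries left out was 0.755 and 0.767. Lama4 with Itga6 gave r = 0.759 over all libraries (rho 0.782) and 0.486 within groups. With the 2 libraries of most extreme Lama4 left out it was 0.737. Itga7, Itgb1, Lamb2 and Lama5 were in none of the 8 pairs.

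Of the other 16119 genes tested, those most like each member over the 21 libraries were named by Pearson's r of log2 normalized counts. For Lama4 they were Akap12 (0.868), Cd248 (0.856), Tmod3, Fndc1 and Flna, and for Itga6 they were Cul7 (0.857), Pxdn (0.831), Tpm4, Tspan2 and Erg. For Nid1 they were Scara5 (0.936), Gsn (0.934), Axl, Plau and Plxdc2, and for Lamb1 they were Tgfbi (0.918), Septin8, Abca8a, Islr and Ddr2. Nid2 was the gene most like Lamc1 (0.842), and Pcdh7 (0.850) and Svep1 (0.797) those most like Lama2. The remaining 4 members had weaker closest matches, Nup188 for Lama5 (0.794), Akt1 for Lamb2 (0.788), Nupl1 for Itgb1 (0.736) and Mrps2 for Itga7 (0.726). After group means were subtracted, the genes most like Lama4 and Itga6 were Reep3 (0.844) and Cul7 (0.759). Cd248 and Fndc1 were then not among the 5 most like Lama4, nor were Pxdn, Tpm4 and Tspan2 among those of Itga6. Scara5 (0.931), Tgfbi (0.892) and Pcdh7 (0.856) remained closest to Nid1, Lamb1 and Lama2, while Rgl1 (0.832) was closest to Lamc1. Each r named is among the highest of 16119 and carries no test.

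The strand setting of the read counting was not given in the sources used here. Of all annotated exon sequence, 12.9% of Lama4 lies opposite exons of other genes (Gm67873, Fam229b and Gm67877), 7.62% of Lamb1 (Gm61290 and Dld), 7.19% of Lama2 (Gm48084) and at most 3.82% of each other member. Fam229b averaged 50.8 normalized counts and Dld, which encodes a mitochondrial dehydrogenase, 13233, and whether reads of these genes entered the counts of Lama4 and Lamb1 was not tested.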

How the data were processed

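The deposited values were raw counts per gene and library. Per the labels, fastp, STAR (genome GRCm39) and featureCounts were the tools by which the authors made these counts. The strand setting is not given in the sources used here. Another deposited table, named as normalized, held the same counts and was not used. Normalized counts were raw counts divided by DESeq2's size factors. Differences were tested in 1 edgeR (version 4.0.16) quasi-likelihood model of the 21 libraries with TMM and filterByExpr, with Benjamini-Hochberg adjustment over the 16129 genes tested. DESeq2 (version 1.42.0), the study's tool, was an alternative, with other alternatives for scaling, filter, samples, the liver division and each library left out. The division used the largest gap in log2 of the summed CPM of the liver list. The code was tested on simulated data. Gene lengths, positions and windows came from the GENCODE annotation and genome of GRCm39. The members and gene lists were chosen with earlier results of these data known. From each pathway list, named genes were taken from the 3 with the smallest unadjusted p-value in each comparison and the most abundant one, and Col4a1 and Col4a2 were added after their values were seen. The most abundant gene of a list was the one with the highest mean normalized count, not divided by length. The values of 1 listed gene are not reported here. Likeness named the 5 genes of highest r. Each library was 1 mouse.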

Additional observations from a re-analysis of the deposited data

How the results depend on the processing

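The choice of tool decided the calls of members. DESeq2 on the 3 groups or on the 2 groups compared called 2 of 10 members (Lama4 and Itga6) in Active against Inactive mice. It called the same 2 in Activity Reduction against Active mice, beside 0 with edgeR in either comparison. With the liver division added, both tools called 0. The 13 libraries with fewer liver transcripts were fitted with edgeR only, so the 0 called there says nothing about the DESeq2 calls. Of the pathway lists, DESeq2 on the 3 groups and on the 2 groups compared each called 1 gene in Activity Reduction against Inactive mice and 3 in Activity Reduction against Active mice (Fbln1, Itga11 and Nid2). DESeq2 with the liver division called 2 (B3galnt2 among them) and 2 (Cd151 and Itga11). Over all genes, edgeR called 0, 2 and 0 in Active against Inactive, Activity Reduction against Inactive and Activity Reduction against Active mice, DESeq2 on the 3 groups 63, 20 and 116, DESeq2 on the 2 groups compared 76, 43 and 139, DESeq2 with the liver division 24, 79 and 82, edgeR on the 2 groups compared 3, 0 and 0, edgeR with DESeq2's size factors 0, 0 and 1, and edgeR with the liver division 0, 1 and 0. DESeq2 on the 3 groups gave an adjusted p-value to 2546 genes in Activity Reduction against Inactive mice, so that several members had none there. Of 270 alternative log2 fold changes of members, 266 moved by less than the spread between replicates (1 SD), and the exceptions came from the 13 libraries, which hold 2 Active mice: Lama2 at -0.07 in Active against Inactive mice and 0.13 in Activity Reduction against Active mice, and in the latter Itga6 at -0.41 and Itga7 at -0.15. That spread is wide beside several of the differences, so this count does not measure their stability. In Active against Inactive mice the SD of Nid1 was 0.29, beside a log2 fold change of 0.28. Lamb1 (SD 0.21) fell from 0.25 to 0.07 in the 13 libraries and still counted as within 1 SD.

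With each library left out in turn, members and pathway genes called ranged from 0 to 0 in each comparison. The edgeR adjusted p ranged from 0.0562 to 0.319 for Lama4 and for Itga6 in Active against Inactive mice, and in Activity Reduction against Active mice from 0.110 to 0.252 for Lama4 and from 0.0816 to 0.229 for Itga6. With the replicate number as a block, 0 members and 0 pathway genes were called, and over all genes 0, 4 and 0. The numbers do not pair the mice: correlations of same-numbered deviations ran from -0.224 to 0.616, 3 of 7 exceeded 0.1 in each comparison, and 2 of 7 libraries correlated best with their own number. With 7 mice a group, SEs of 0.03 to 0.14 on the log2 scale limit what could be called.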
